A study of Mus musculus with 6 samples.

Results

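The protocadherins, the cell adhesion receptors whose gene symbols begin with *Pcdh*, were compared between IG27 cells and WT cells. The RefSeq name table lists 70 such mouse genes, and probes were assigned to them through the accession that each probe carries. A probe was found for 47 of the 70 (66 probes), out of 22911 genes with a probe in the series. Of these 47, 23 had a probe well above background, by the flag of the scanner software, on every array carrying that flag in at least 1 group, and these were tested together with all other genes that met this filter (14898 in total). They comprised 2 of 14 *Pcdha* genes, 10 of 22 *Pcdhb* genes, 3 of 22 *Pcdhg* genes and 8 of 12 non-clustered protocadherins.

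Both groups were OS3 cells, a glial line from the brain of newborn mice (strain C3H in the labels, C3H/HeN in the methods) that was immortalized with SV40, and the labels give the source as male. WT cells were OS3 cells transfected with the empty vector, and IG27 cells were OS3 cells transfected with a plasmid encoding histone H3.3 with the K27M mutation, in which lysine 27 is replaced by methionine. The SV40 immortalization is therefore common to both groups. According to the methods, transfected cells went through drug selection and several clones were made, and the sources used here do not give the clone behind each array. RNA was taken from 3 dishes per group after 2 days of culture and each sample was hybridized to its own Agilent mouse array in a single color, so that p-values measure the spread between dishes and not between independent transfections. The number of arrays limits the precision, and an exact permutation test of 3 against 3 arrays cannot give a p below 0.1.

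Protocadherins are transmembrane receptors of the cadherin superfamily that bind molecules of their own kind on neighboring cells, and in the brain they take part in the recognition of self and non-self, axon guidance and synapse formation. The clustered genes lie in tandem on chromosome 18 as the *Pcdha*, *Pcdhb* and *Pcdhg* arrays, in which each variable exon has its own promoter and a cell uses a small choice of them under the control of CTCF, cohesin and DNA methylation. The *Pcdha* and *Pcdhg* variable exons are spliced to constant exons shared within their array, whereas each *Pcdhb* gene is complete in itself. The non-clustered genes, dispersed over several chromosomes, encode receptors with individual cytoplasmic tails, several of which bind regulators of actin.

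Values are given as log2 intensity after subtraction of the 75th percentile of each array, so that 0 is that percentile, and a difference is IG27 minus WT on this scale. On the 5 arrays with complete scanner output, 58.8% to 61.2% of the probes were well above background and no spot was saturated. The scanner output of IG27 replicate 2 was short, so its values came from the deposited table and it carries no background flag. *H3f3a*, the gene of the transfected histone, lay between 6.70 and 6.96 in WT cells and between 6.52 and 6.61 in IG27 cells, and whether its probe reads the plasmid RNA is not known, so it does not check the labels. Of the markers of the labelled cell type, 5 of 6 astrocyte, 5 of 6 oligodendrocyte lineage and 3 of 4 progenitor genes were well above background on every flagged array of WT cells, and 5 of 6, 6 of 6 and 4 of 4 in IG27 cells. The astrocyte gene *Slc1a3* and the progenitor gene *Fabp7* were not well above background on any WT array and were at least 20.6-fold and at least 110.4-fold higher in IG27 cells (bright group's mean against the detection limit of the dim group's arrays). The summed linear level of the marker lists, in units of the 75th percentile, was 95.8 to 105.6 in WT cells and 55.1 to 63.4 in IG27 cells for astrocyte markers, 64.9 to 67.1 and 68.5 to 71.0 for the oligodendrocyte lineage, and 194.5 to 203.3 and 158.4 to 176.0 for progenitors. Of markers of other cells, neuron markers summed to 17.6 to 20.01 in WT cells and 9.97 to 11.0 in IG27 cells, with *Rbfox3* and *Syt1* not well above background on any flagged array, and fibroblast markers to 126.2 to 128.9 and 64.3 to 69.6, with *Lum* likewise not well above background. Endothelial markers summed to 0.165 to 0.186 and 0.137 to 0.162, with *Cdh5* and *Tek* not well above background, and microglial markers to 1.93 to 2.16 and 0.618 to 0.933, with *Ptprc* and *Cx3cr1* not well above background. Single markers did not all follow these sums, in which a few bright probes carry most of the level. *Map2* (neuron) rose by 8.03 and was well above background on 1 of 3 WT arrays, *Snap25* (neuron) differed by -0.11 without passing the test, *S100b* (astrocyte) rose by 4.93, and *Dcn* (fibroblast), not well above background in WT cells, was at least 3.32-fold higher in IG27 cells. *Aif1* (microglia) rose by 1.66. Others fell by their brightest probes, namely *Tubb3* (-2.63), *Slc1a2* (-1.03), *Aldh1l1* (-1.72), *Nes* (-0.49), *Sox2* (-0.80), *Col1a1* (-0.92), *Pdgfrb* (-1.16) and *Csf1r* (-1.57). *Stmn2* (neuron), not well above background in IG27 cells, was at least 5.32-fold lower there. The probes of *Gfap*, which carries most of the astrocyte sum, ran from -1.07 to 0.19. By their brightest probes 4 of the 6 oligodendrocyte lineage markers rose, among them *Pdgfra* (2.36), and 1, *Sox10* (-0.37), fell. The probes of *Mbp* in this list ran from -2.30 to 0.92. The part of these differences in the protocadherin results below was not tested, and in RNA from whole dishes fewer cells of a type and less RNA per cell cannot be told apart.

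IG27 and WT cells differed in 15 of the 23 protocadherins tested (two-sided limma test, with the p adjusted by Benjamini-Hochberg over all genes tested and a threshold of 0.05). This is 65.2% of them, beside a background of 70.5% of all genes tested that passed the same threshold, so the share of protocadherins called was near that of the genome. IG27 cells had 7 of them higher, beside 30.5% of all genes tested, and 8 lower, beside 40.0% of all genes tested. For 18 of the 23 no WT array lay within the range of the IG27 arrays or the reverse, beside 75.7% of all genes tested. Their median log2 fold change was -0.04, compared with -0.07 for all genes. They ran from -2.87 (*Pcdh12*, whose size depended on the background correction and the offset added with it) to 2.04. Called changes of at least 2-fold were found in 8 of the 23 (34.8%), compared with 23.1% of all genes. These 8 include *Pcdh7*, whose probes disagreed in direction, and *Pcdh12* and *Pcdh8*, which entered through 1 group only. The 2 shares are therefore not read as a difference. 3 members entered the test through 1 group only, namely *Pcdh12* through WT cells and *Pcdh8* and *Pcdhb7* through IG27 cells. Such entry favors a difference without requiring one, and the counts are read as a description. Among the non-clustered genes *Pcdh10* fell and *Pcdh18* rose by about the same amount in this fit. The equal size depended on the processing. Normexp on the median signals, with an added offset of 50, gave -2.08 for *Pcdh10* and 1.41 for *Pcdh18*. The offset alone makes differences between dim values smaller. The adjacent genes *Pcdhb16* and *Pcdhb17* moved in opposite directions, whereas *Pcdhb17*, *Pcdhb18*, *Pcdhb20* and *Pcdhb21* all fell.

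**Figure D1:**
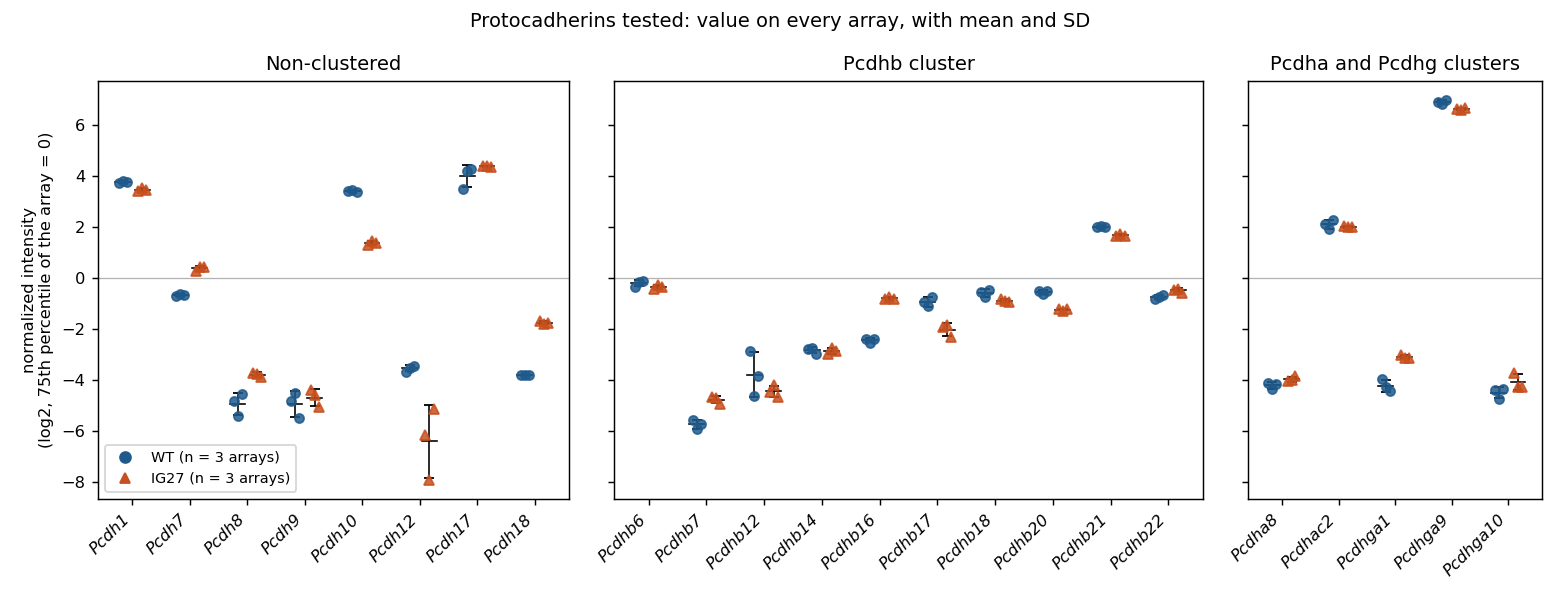
Normalized log2 intensity (vertical axis, 0 is the 75th percentile of the array) of the 23 tested protocadherins on each of the 3 WT (circles) and 3 IG27 arrays (triangles), with the mean and SD as bars. *Pcdh10* lies near 3.4 in WT and 1.4 in IG27 cells and *Pcdh18* near -3.8 and -1.8, and *Pcdhb16* rises by 1.63 beside *Pcdhb17*, which falls by 1.09, and levels of different probes are not comparable with each other.

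*Pcdh10* and *Pcdh18* are neighbors among the protocadherins of chromosome 3, with 27 genes of the name table between them, of which 1, *Pabpc4l*, is protein-coding. The 250 bases before the RefSeq start of each (GRCm38.p6), read 5′ to 3′ on the strand of the gene, are shown because the changes of this pair, described next, were large for their errors and ran in opposite directions, and that of *Pcdh8* is shown for contrast as a window with fewer CpG dinucleotides. Each CG is in capitals.
Pcdh10, chr3:45378148-45378397, plus strand: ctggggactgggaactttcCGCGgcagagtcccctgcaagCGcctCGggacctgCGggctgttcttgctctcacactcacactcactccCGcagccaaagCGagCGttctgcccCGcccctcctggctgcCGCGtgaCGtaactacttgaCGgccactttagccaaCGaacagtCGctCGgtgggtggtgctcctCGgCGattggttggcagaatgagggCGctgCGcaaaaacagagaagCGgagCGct
Pcdh18, chr3:49757317-49757566, minus strand: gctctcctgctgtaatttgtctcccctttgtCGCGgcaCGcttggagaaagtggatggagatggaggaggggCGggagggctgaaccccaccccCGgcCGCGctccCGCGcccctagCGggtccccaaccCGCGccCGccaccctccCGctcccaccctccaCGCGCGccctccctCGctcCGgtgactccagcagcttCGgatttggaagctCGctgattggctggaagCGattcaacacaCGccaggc
Pcdh8, chr14:79771313-79771562, minus strand: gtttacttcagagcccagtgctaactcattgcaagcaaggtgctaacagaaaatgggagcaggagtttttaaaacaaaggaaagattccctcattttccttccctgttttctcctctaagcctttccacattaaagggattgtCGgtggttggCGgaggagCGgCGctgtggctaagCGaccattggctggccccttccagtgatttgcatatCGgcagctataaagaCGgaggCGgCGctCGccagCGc
The window of *Pcdh10* holds 22 CG and that of *Pcdh18* 23 CG, whereas that of *Pcdh8* holds 11 CG, compared with a median of 6 over all 32851 windows of this length in the table. For the 9 protocadherins with a window (10 windows, all of non-clustered genes), the number ran from 3 to 23. The letters GGGCGG, read on both strands, occurred in 4 of the 10 windows, those of *Pcdh10*, *Pcdh18*, *Pcdh17* and *Pcdh19*, and in 32.7% of all windows. The letters TATAAA, also on both strands, occurred in the windows of *Pcdh8* and *Pcdh15* and in 12.4% of all windows. Thus the pair that moved in opposite directions had similar windows by these counts, which describe the letters and not any binding.

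*Pcdh10* (OL-protocadherin), which joins homophilic contacts to the WAVE complex of actin regulators, had values of 3.42, 3.44 and 3.38 in WT replicates 1 to 3 and 1.30, 1.45 and 1.36 in IG27 replicates 1 to 3. All WT arrays were higher than all IG27 arrays. The gene fell by 2.04 on the log2 scale (standard error 0.06, adjusted p = 7.55e-07, limma), so that WT cells had 4.12-fold more. Its other 2 probes, for other transcripts of the gene, fell by 2.23 and 1.51, and all 3 probes passed the test.

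*Pcdh18*, whose cytoplasmic tail binds the adaptor Dab1, had values of -3.82, -3.80 and -3.83 in WT cells and -1.71, -1.81 and -1.79 in IG27 cells. Every IG27 array was above every WT array. It rose by 2.04 on the log2 scale (standard error 0.05, adjusted p = 4.32e-07, limma), or 4.13-fold. It has 1 probe, and the call held under all alternatives that gave a value, as did that of *Pcdh10*. The size was smaller with normexp, 1.41 for *Pcdh18*, whereas *Pcdh10* was -2.08 with it.

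*Pcdh7* (BH-protocadherin or NF-protocadherin), which takes part in axon outgrowth, differed in direction between its probes. Its brightest probe over all arrays, for the transcript NM_018764, read -0.73, -0.64 and -0.67 in WT cells and 0.25, 0.41 and 0.44 in IG27 cells, a rise of 1.05 (standard error 0.07, adjusted p = 2.31e-05, limma). The 2 probes for the transcript NM_001122758 fell. The first of them read -0.22, -0.31 and -0.14 in WT cells and -1.75, -1.64 and -1.96 in IG27 cells, a difference of -1.56 (adjusted p = 2.18e-05, limma over probes), and the second differed by -1.21 (adjusted p = 8.62e-04). For none of the 3 probes did the WT and IG27 arrays overlap, so the direction given for the gene depends on the probe. Whether each probe reads only the transcript it is assigned to is not known. In WT cells alone the first probe for NM_001122758 was the brighter (mean -0.22 against -0.68), so the changes themselves decided which probe stood for the gene, and the mean of the 3 probes gave -0.57.

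**Figure D2:**
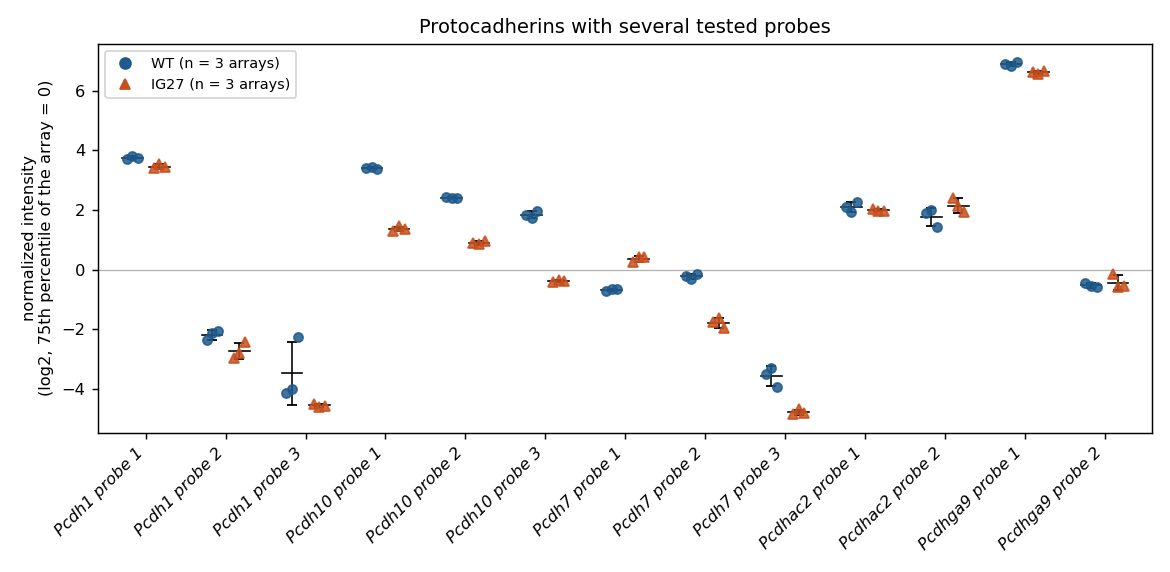
Normalized log2 intensity (vertical axis, 0 is the 75th percentile of the array) of every tested probe of the 5 protocadherins with more than 1 tested probe, on the 3 WT (circles) and 3 IG27 arrays (triangles), with the mean and SD as bars. The 3 probes of *Pcdh10* fall together by 2.04, 2.23 and 1.51, whereas probe 1 of *Pcdh7* rises by 1.05 and its probes 2 and 3 fall by 1.56 and 1.21.

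*Pcdh8* (arcadlin), an activity-regulated protocadherin of synapses that acts on N-cadherin through the kinase Taok2, read -4.86, -5.43 and -4.58 in WT cells and -3.72, -3.79 and -3.90 in IG27 cells. In WT cells it was well above background on 2 of 3 arrays, so it entered the test only through IG27 cells, where it was higher. Such entry favors a difference, and its p-value and the separation of its arrays are a description. The IG27 arrays were all higher, by 1.15 on average (standard error 0.21, adjusted p = 0.00318, limma), and by 0.44 (adjusted p = 0.0087) with normexp background correction of the median signals. *Pcdh12*, known from endothelial cells, was the reverse, with -3.68, -3.53 and -3.45 in WT cells and -6.18, -7.95 and -5.15 in IG27 cells, where it was well above background on 1 of the 2 flagged arrays. *Pcdh12* entered the test only through WT cells, where it was higher, so its p-value is likewise a description. The difference of -2.87 had a wide error (standard error 0.67, adjusted p = 0.00872, limma), and the IG27 arrays spread over several log2 units. With normexp the difference was -0.86 (adjusted p = 7.95e-04), and with 1 IG27 array left out it ran from -3.51 to -2.11. The call was lost with the slide row as a block (-2.90, adjusted p = 0.0612), a fit that rests on WT replicate 2, since the other WT arrays lay in another row than the IG27 arrays.

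*Pcdh1*, which is known from epithelia as well as brain, read 3.71, 3.82 and 3.74 in WT cells and 3.40, 3.54 and 3.43 in IG27 cells. The groups did not overlap, and the small fall of 0.30 passed the test (standard error 0.06, adjusted p = 0.00438, limma) but not after quantile normalization (-0.14, adjusted p = 0.115). Its other 2 probes differed by -0.54 (adjusted p = 0.0187) and -1.08 (adjusted p = 0.0969). *Pcdh17*, which directs axon extension through the WAVE complex, read 3.49, 4.18 and 4.29 in WT cells and 4.37, 4.41 and 4.35 in IG27 cells. WT replicate 1 stood below the other WT arrays, and although no IG27 array fell below a WT array, the difference of 0.39 was not significant (95% confidence interval -0.12 to 0.90, adjusted p = 0.143, limma). Without WT replicate 1 it was 0.14 (adjusted p = 0.0979). *Pcdh9* read -4.85, -4.50 and -5.51 in WT cells and -4.42, -4.60 and -5.08 in IG27 cells, so that the groups overlapped (difference 0.25, 95% confidence interval -0.46 to 0.97, adjusted p = 0.466). In all, 3 of the 8 non-clustered genes tested rose, 3 fell and 2 did not pass the test, with a median of 0.32. The share called was 75%, beside 70.5% of all genes tested.

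**Figure D3:**
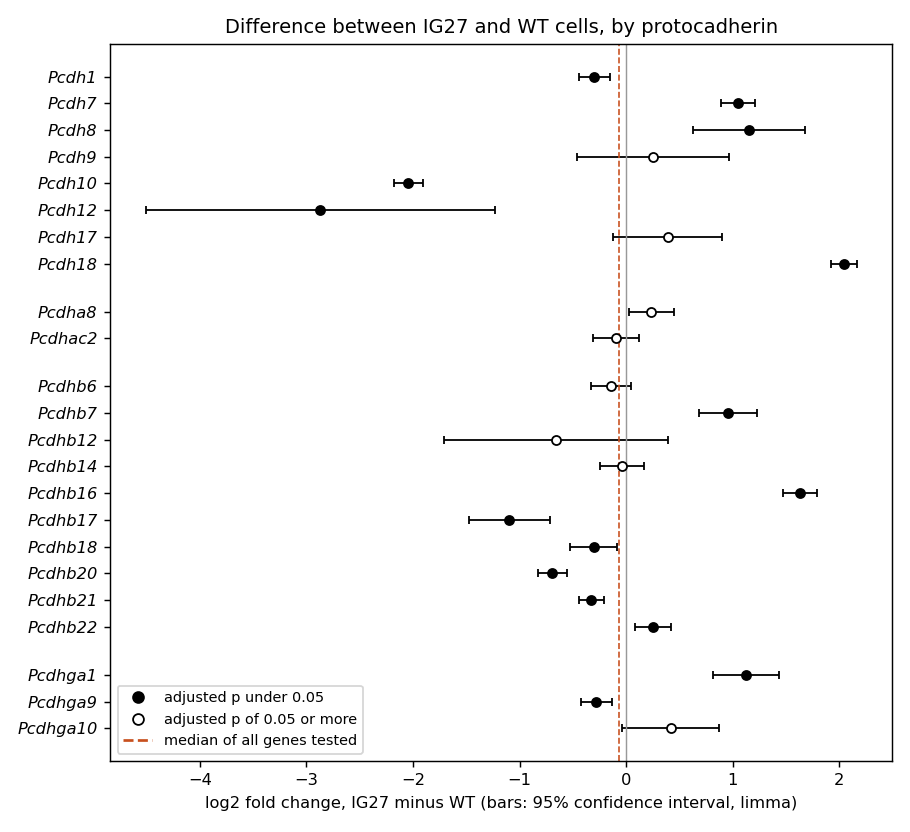
Log2 fold change of IG27 against WT cells (horizontal axis) for the 23 tested protocadherins, with the 95% confidence interval from limma as bars, filled points for an adjusted p under 0.05 and a dashed line at the median of all genes (-0.07). The intervals of *Pcdh10* (-2.18 to -1.91), *Pcdh18* (1.92 to 2.16) and *Pcdhb16* (1.47 to 1.79) lie far from 0, and that of *Pcdh12* (-4.51 to -1.23) is the widest.

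In the *Pcdhb* array, whose genes each encode a full protein from 1 exon, 7 of the 10 tested genes passed the test. In IG27 cells 3 were higher and 4 lower, with a median of -0.22. The share called was 70%, near the 70.5% of all genes tested (30.5% higher and 40.0% lower). *Pcdhb16* read -2.39, -2.55 and -2.39 in WT cells and -0.84, -0.75 and -0.85 in IG27 cells. All IG27 arrays were above all WT arrays, with a rise of 1.63 (standard error 0.07, adjusted p = 3.23e-06, limma), or 3.099-fold. *Pcdhb17*, the next gene in order, moved the other way, with -0.97, -1.12 and -0.75 in WT cells and -1.94, -1.85 and -2.33 in IG27 cells. It fell by 1.09 (standard error 0.15, adjusted p = 8.93e-04, limma), again without overlap.

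*Pcdhb20* also fell, from -0.54, -0.64 and -0.50 in WT cells to -1.23, -1.29 and -1.23 in IG27 cells, a difference of -0.69 (standard error 0.05, adjusted p = 6.26e-05, limma). *Pcdhb21* read 1.98, 2.04 and 1.99 in WT cells and 1.66, 1.72 and 1.65 in IG27 cells, a difference of -0.33 (adjusted p = 0.00106). The arrays of each group lay close together in both genes, without overlap. *Pcdhb18* read -0.57, -0.77 and -0.46 in WT cells and -0.85, -0.91 and -0.97 in IG27 cells, a difference of -0.31 (adjusted p = 0.0215) whose call was lost in 7 of the alternatives. *Pcdhb7*, dimmer in WT cells where 2 of 3 arrays were well above background, read -5.59, -5.93 and -5.73 there and -4.70, -4.73 and -4.95 in IG27 cells, a rise of 0.95 (standard error 0.11, adjusted p = 3.77e-04, limma) that was 0.29 with normexp. *Pcdhb7* entered the test only through IG27 cells, where it was higher, so its p-value is a description. *Pcdhb22*, with -0.83, -0.74 and -0.66 against -0.47, -0.43 and -0.59, rose by 0.25 (adjusted p = 0.0171), and this call was lost in 6 alternatives. The other 3 tested genes overlapped between the groups, with differences of -0.14 in *Pcdhb6*, -0.66 in *Pcdhb12* and -0.04 in *Pcdhb14*. For *Pcdhb12* the WT arrays ran from -4.64 to -2.89, and the difference was -0.20 (adjusted p = 0.512) without WT replicate 1 and -1.08 (adjusted p = 0.0294) without WT replicate 2. *Pcdhb6* passed the test with normexp (-0.28, adjusted p = 0.0136) and without WT replicate 1 (-0.21, adjusted p = 0.0346), and *Pcdhb14* after quantile normalization (-0.21, adjusted p = 0.0489). The *Pcdhb* genes are close paralogs of each other, and cross-hybridization between them was not tested.

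By position, 7 of the 9 genes from *Pcdhb14* to *Pcdhb22* were tested and 6 of them passed the threshold. Of the 13 genes from *Pcdhb1* to *Pcdhb13*, 3 were tested and 1 passed it. The detected *Pcdhb* genes thus lay mainly at the end of the array next to *Pcdhg*. The calls on these few genes are to be read beside the 70.5% of all genes tested that were called. Within this stretch *Pcdhb16* and *Pcdhb22* rose, while *Pcdhb17*, *Pcdhb18*, *Pcdhb20* and *Pcdhb21*, which lie between them, fell. Whether direction goes with the order along the chromosome was not tested, and the genes are few. The other genes of chromosome 18 (363 tested) had 257 calls (70.8%) and a median of 0.00.

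The *Pcdha* and *Pcdhg* arrays had few genes that could be tested, and since their isoforms share constant exons and the files do not say in which exon a probe lies, a value may stand for 1 isoform or for the whole array. *Pcdhac2*, a C-type *Pcdha* isoform, read 2.11, 1.92 and 2.25 in WT cells and 2.04, 1.98 and 1.98 in IG27 cells. The groups overlapped and the difference of -0.10 was not significant (95% confidence interval -0.31 to 0.12, adjusted p = 0.361, limma), and the second probe of the gene gave 0.37 (adjusted p = 0.124). *Pcdha8* read -4.12, -4.37 and -4.16 in WT cells and -4.05, -4.03 and -3.87 in IG27 cells, which do not overlap, yet the difference of 0.24 narrowly missed the threshold (95% confidence interval 0.02 to 0.45, adjusted p = 0.0501). No *Pcdha* gene was thus called in limma, with 1 of 2 at an unadjusted p under 0.05.

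Of the *Pcdhg* genes, *Pcdhga1*, the first of its array, read -3.98, -4.27 and -4.46 in WT cells and -3.04, -3.16 and -3.16 in IG27 cells. The IG27 arrays were all higher, with a rise of 1.12 (standard error 0.13, adjusted p = 3.14e-04, limma), or 2.18-fold, which was 0.63 with normexp. *Pcdhga9* had values of 6.90, 6.82 and 6.97 in WT cells and 6.62, 6.57 and 6.67 in IG27 cells. This small fall of 0.28 passed the test without overlap (standard error 0.06, adjusted p = 0.00636, limma). Its second probe gave 0.09 (adjusted p = 0.541, limma over probes), so the probes of *Pcdhga9* disagreed. The second probe was also far dimmer, with means of -0.53 in WT cells and -0.43 in IG27 cells. Whether the bright probe reads *Pcdhga9* alone is not known. *Pcdhga10* read -4.42, -4.77 and -4.38 in WT cells and -3.74, -4.28 and -4.30 in IG27 cells, a difference of 0.42 that was not significant (95% confidence interval -0.04 to 0.87, adjusted p = 0.0869).

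**Figure D4:**
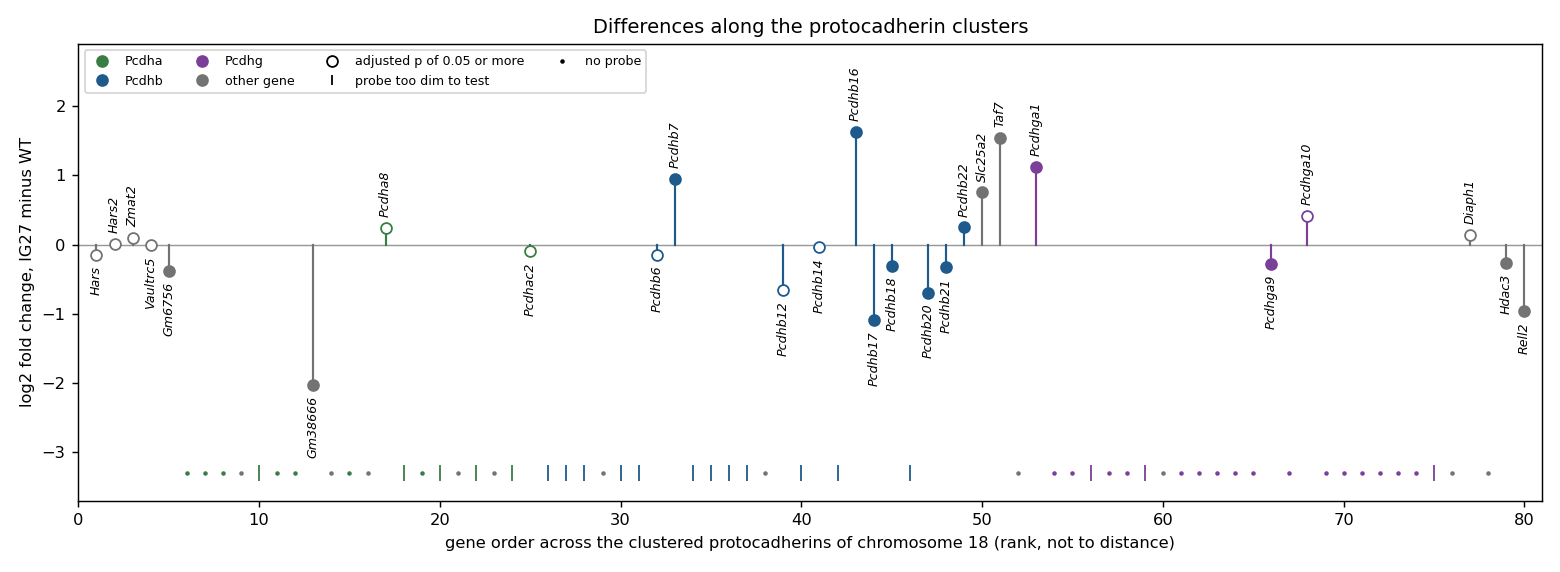
Log2 fold change of IG27 against WT cells (vertical axis) for the genes of the 3 protocadherin arrays and their neighbors, in their order along chromosome 18 (horizontal axis, rank), with filled points for an adjusted p under 0.05, ticks for genes whose probe was too dim to test and dots for genes without a probe. *Pcdhb16* (1.63), *Pcdhb17* (-1.09), *Taf7* (1.54) and *Pcdhga1* (1.12) stand out, and the point of *Gm38666* is a fitted value of a gene not well above background in IG27 cells.

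The other 24 protocadherins with a probe were not tested, and their values lay between -8.34 and -2.74. For 18 of them no probe was well above background on any of the 5 flagged arrays, namely *Pcdh11x*, *Pcdh19*, *Pcdh20*, *Pcdha11*, *Pcdha12*, *Pcdhac1*, *Pcdhb2*, *Pcdhb3*, *Pcdhb5*, *Pcdhb8*, *Pcdhb9*, *Pcdhb10*, *Pcdhb11*, *Pcdhb13*, *Pcdhb19*, *Pcdhga5*, *Pcdhgb1* and *Pcdhgc5*. *Pcdh19* is known for its link to epilepsy in females. The other 6 passed on 1 or 2 of the flagged arrays, and these were *Pcdh15* (a tip link protein of hair cells), *Pcdha4*, *Pcdha9*, *Pcdhb1* and *Pcdhb4* in WT cells and *Pcdhb15* in IG27 cells. A further 23 genes, 7 of the *Pcdha* and 16 of the *Pcdhg* array, had no probe with a matching accession and were not analysed here.

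Genes inside or beside the clustered arrays were followed as well. Of the 11 neighbors tested, 2 rose and 4 fell, beside 30.5% and 40.0% of all genes tested, with a median of -0.01. The 2 that rose lie between *Pcdhb22* and *Pcdhga1*. *Taf7*, a subunit of the general transcription factor TFIID, read -2.40, -2.64 and -2.58 in WT cells and -0.88, -1.11 and -1.02 in IG27 cells, which is a rise of 1.54 (standard error 0.09), and *Slc25a2*, a mitochondrial ornithine carrier, rose by 0.76 (standard error 0.08). Beyond the arrays *Rell2* (-0.96), *Hdac3* (-0.26), which encodes a histone deacetylase, and *Gm6756* (-0.38) fell. *Gm38666*, inside the *Pcdha* array, was not well above background on any flagged IG27 array and was at least 1.03-fold lower there.

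Genes that act on or with protocadherins were described from lists. Of all genes tested 30.5% were called higher and 40.0% lower, and the counts of each list are read beside these shares. Of 16 regulators of chromatin at the clustered arrays, 5 rose and 9 fell, with a median of -0.23. *Stag2* (-0.70), a cohesin subunit, *Ctcf* (-0.60), the factor that loops the array promoters to their enhancers, and *Smc1a* (-0.52), also of cohesin, fell most. *Dnmt3a* (0.77) and *Dnmt3b* (0.27), DNA methyltransferases, and *Smchd1* (0.28), a repressor of the arrays, rose most by their brightest probes. The second probe of *Dnmt3a* gave 0.13 and was not called, and that of *Smchd1* gave 0.64 and was called. None of the 16 changed 2-fold. The 2 groups did not overlap on any of these 6 genes.

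For the enzymes that cut protocadherins, 1 of the 6 tested genes rose and 4 fell, with a median of -0.43. *Adam10*, the sheddase of the ectodomain, read 5.65, 5.73 and 5.81 in WT cells and 3.71, 3.64 and 3.60 in IG27 cells. Every WT array was higher, and the gene fell by 2.08 (standard error 0.06), or 4.22-fold. Among the gamma-secretase subunits *Aph1b* (-0.90), *Aph1a* (-0.52) and *Ncstn* (-0.33) fell and *Psenen* (0.16) rose, while *Psen2* (0.15) did not pass the test, and the count of 5 dropped to 3 in 6 of the alternatives.

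Of the 15 intracellular partners tested, 4 rose and 7 fell, with a median of -0.14. The WAVE complex subunit *Wasf1* rose by 1.84, the kinase *Fyn* by 1.404 and the focal adhesion kinase *Ptk2*, which clustered protocadherins inhibit, by 0.50. *Cyfip2* (-2.00) and *Nckap1* (-0.79), also of the WAVE complex, and *Ctnnb1* (-0.80), which encodes beta-catenin, fell. Subunits of the complex that binds *Pcdh10* thus moved in both directions.

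The list of large atypical cadherins, which also holds the kinase gene *Fjx1*, had 1 gene that rose and 7 that fell among 10 tested. Its median was -0.77. *Fat4* (-2.25), *Fat1* (-1.65) and *Fjx1* (-1.38), the kinase that modifies Fat and Dachsous proteins, fell most, and *Clstn3* (0.43), a synaptic calsyntenin, was the gene that rose. A further list held subunits of the complex that methylates H3K27, the residue mutated in the transfected histone, and the H3K27 demethylases. Of its 6 genes 3 rose and 1 fell. *Kdm6b*, a demethylase of H3K27, rose by 1.14, *Ezh1* by 0.45 and *Suz12* by 0.29, and *Ezh2*, the main methyltransferase, fell by 0.55. *Eed* (0.21) and *Kdm6a* (-0.15) did not pass the test. All differences named from these lists as risen or fallen passed the limma threshold over all genes. The share called in each list is to be read beside the 70.5% of all genes (30.5% higher and 40.0% lower).

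**Figure D5:**
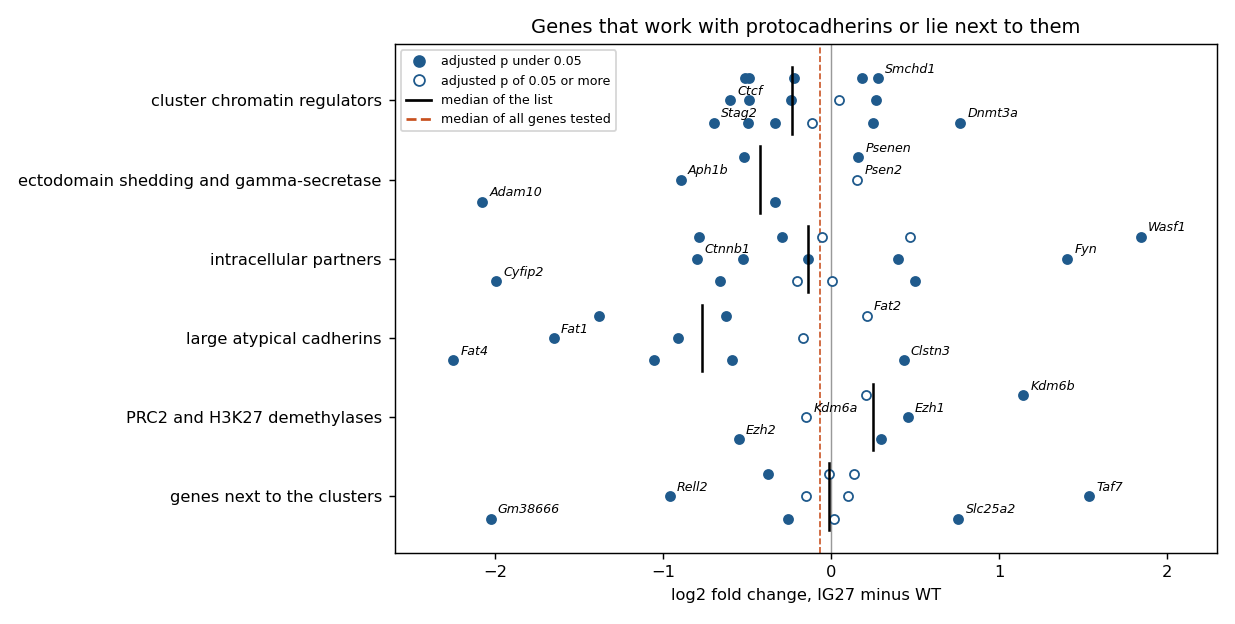
Log2 fold change of IG27 against WT cells (horizontal axis) for each tested gene of 6 lists related to protocadherins, with filled points for an adjusted p under 0.05, a black bar at the median of the list and a dashed line at the median of all genes (-0.07). *Adam10* (-2.08), *Fat4* (-2.25) and *Cyfip2* (-2.00) lie at the left and *Wasf1* (1.84) and *Taf7* (1.54) at the right, and the point of *Gm38666* is a fitted value of a gene not well above background in IG27 cells.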

How the data were processed

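RNA of 3 WT and 3 IG27 dishes was hybridized to 6 single-color Agilent arrays of 1 slide. The authors deposited scanner output with the processed signal, an intensity on a linear scale, and a table of the same intensity per probe. The scanner headers name Feature Extraction 10.7.3.1 and probes designed on mm9, whereas the submitters' processing notes name version 9.1. The labels name an RNeasy kit for the RNA and the methods a Maxwell kit. The scanner output of IG27 replicate 2 holds 285 spots, of which 255 of 255 single-spot probes equaled the table (relative tolerance 1e-04), so the table gave this array. Scanner output and table give WT replicates 2 and 3 in exchange for each other. Which is right could not be settled, and replicate numbers here follow the scanner output, which does not affect the comparison of the groups.

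From the deposited intensity, log2 values were computed, outlier spots, 107 to 210 on each complete array, left out, replicate spots averaged and the 75th percentile of each array subtracted. Probes were named by RefSeq accession with a GRCm38.p6 table, used for names, chromosomes and gene order. The brightest probe over all arrays stood for a gene. A gene entered the test when all flagged arrays of 1 group or both had its probe well above background, and limma 3.58.1 (lmFit, eBayes) was run in R 4.3.3, IG27 minus WT, two-sided, without a block, at a Benjamini-Hochberg adjusted p under 0.05. Simulated data were used to test the steps. A bound for a gene not above background in 1 group sets the bright group's mean against the mean of the higher of the lowest detected value and the probe's own value on each dim array.

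The members and the gene lists were chosen with earlier results of these data known. Array values are given for non-clustered members and for the 4 largest called rises and falls without overlap in each cluster. Those of *Pcdhac2*, *Pcdha8* and *Pcdhga10* were added after they were seen. In lists, the 3 largest called rises and falls are named, or all where 5 or fewer were called. Alternatives changed the arrays used, the scaling, the background correction, the filter, the probe rule, the variance model, the block or the threshold, and the closing section gives their effect. Normexp was run with an offset of 50 added to each signal, which by itself makes differences between dim values smaller. Promoter windows are those of RefSeq.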

Additional observations from a re-analysis of the deposited data

How the results depend on the processing

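Of the 15 protocadherins called, 9 kept their direction and their call under each of the 17 alternatives that gave a value, 5 lost the call in at least 1 (*Pcdh1*, *Pcdh12*, *Pcdhb18*, *Pcdhb22* and *Pcdhga9*) and *Pcdh7* reversed, to -0.57 with the mean of its probes. *Pcdh8* and *Pcdhb7*, which are among the 9, gave no value under the stricter filter of detection on every flagged array. That filter left 20 protocadherins, of which 13 were called. Sizes moved more than calls, and with normexp the part of the added offset of 50 was not tested. With normexp on median signals *Pcdh12* was -0.86, *Pcdh8* 0.44, *Pcdhb7* 0.29, *Pcdhga1* 0.63 and *Pcdhga9* -0.18, each still called. *Pcdh18* was 1.41 and *Pcdhb16* 1.30 with normexp, also still called. With the mean of its probes *Pcdh1* was -0.64. The number of protocadherins called ran from 12, with the slide row as a block, to 16, and with each probe tested on its own 20 of 31 probes were called. In the *Pcdha* array 1 gene instead of 0 was called with the stricter filter, with outlier spots kept, with the mean of the probes, with the slide row as a block and at an unadjusted p, and from 0 to 1 with 1 array left out. In the *Pcdhg* array 1 instead of 2 was called with the mean of the probes and with the slide row as a block. The enzymes that cut protocadherins had 3 instead of 5 called with complete scanner output only and with no filter, and from 3 to 6 with 1 array left out. Of the members not called, *Pcdha8*, *Pcdhb6*, *Pcdhb12* and *Pcdhb14* passed the test in 1 or more alternatives, and *Pcdhga10* ran from 0.16 with quantile normalization to 0.66 with the slide row. Some changed sign, namely *Pcdh9* (-0.015 with quantile normalization, -0.20 with the slide row as a block, -0.024 without WT replicate 3 and up to 0.48 without another array), *Pcdha8* (-0.0091 with quantile normalization), *Pcdhac2* (0.025 with quantile normalization, 0.14 with the mean of the probes, 0.074 with the slide row), *Pcdhb12* (0.18 with the slide row) and *Pcdhb14* (0.013 without WT replicate 2 or IG27 replicate 1 and down to -0.10 without another array). The median of all genes, -0.07 in the reported fit, was 0.12 when dim probes were kept. The cause was not tested, except that the slide row leaves WT replicate 2 as the only WT array beside the IG27 arrays. Same-numbered arrays did not deviate together (correlations of 0.0118, 0.0395 and 0.0763), so the numbers were not taken as pairs, and with the replicate block 15 protocadherins were called. The 3 arrays per group limit the precision, and 18 protocadherins had no probe well above background on any flagged array. IG27 replicate 2 carries no flag.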
